A study of Rattus norvegicus with 6 samples.

Results

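The mitosis genes are 44 rat genes, named by symbol, whose products carry a cell through mitosis: cyclins and kinases, checkpoint proteins, kinetochore and spindle components, and the cytokinesis machinery. Of these, 39 had a probe set that the array's annotation assigned to 1 gene, out of 18166 genes with such a probe set, and all 39 passed a filter on mean signal that kept 11540 genes. Birc5, Cenpe, Spc24 and Anln had no such probe set, and Nek2 was found only in a probe set shared with Nek2l1, so these 5 were not analysed here. The measurements came from cultured stem cells that had been isolated from rat (male) skeletal muscle by plating, with RNA hybridised to Affymetrix Rat Gene 2.0 ST arrays. There were 6 groups with 1 array each, and no repeat of any group, so every difference below describes a pair of arrays and none has a test. The group titled cholesterol received cholesterol at 100 mg/dl with cyclodextrin as carrier. The group titled fatty acid was taken to be the one given sodium palmitate, for which the labels state no dose. The groups titled OZ serum and LZ serum carry those titles without further explanation, and the last groups are the high glucose control and the low glucose control. The labels do not say which control matches which treatment, whether the controls held cyclodextrin, how long the treatments lasted, or how many animals the cells came from. Values are deposited probe-set intensities on a linear scale, given here as log2, so that a difference of 1 is a 2-fold difference.

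Mitosis is driven by Cdk1 bound to cyclin B. Polo-like and Aurora kinases then help to build the spindle, kinesins and microtubule-binding proteins shape it, and kinetochores tie the chromosomes to it. The spindle checkpoint holds the anaphase-promoting complex inactive until every chromosome is attached, after which securin and cyclin B are destroyed, separase cleaves cohesin, and the central spindle directs the cleavage furrow. Most of these genes are transcribed late in the cell cycle and are silent or low in resting cells, so their RNA is widely used as an index of the dividing share of a culture. In muscle, resident stem cells are mostly quiescent and take up these genes when they are activated or placed in culture. In a bulk array, fewer dividing cells and less of each RNA per dividing cell cannot be told apart.

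Many promoters of this gene class carry the cell cycle homology region (CHR), known as the element bound by the DREAM and MuvB complexes, and CCAAT boxes, known as the element bound by NF-Y. RefSeq promoter windows from assembly GRCr8, running from 250 bases before to 50 bases after the annotated start, were found for 33 of the 39 genes. Both strands were searched for TTTGAA or TTTAAA as the CHR and for CCAAT as the CCAAT box, and a match is a string of letters, not a shown binding site. The windows of 4 genes are printed 5′ to 3′ on the gene's strand, with CHR and CCAAT matches of either orientation in capitals. Mki67 (chr1:199952544-199952843, minus strand) and Plk1 (chr1:186147408-186147707, plus strand) are shown as the brightest genes with both motifs. Spc25 (chr3:74396669-74396968, minus strand) and Cdc25c (chr18:26630243-26630542, minus strand) are shown because their signals departed most from the order of arrays that the other mitosis genes shared.
Mki67: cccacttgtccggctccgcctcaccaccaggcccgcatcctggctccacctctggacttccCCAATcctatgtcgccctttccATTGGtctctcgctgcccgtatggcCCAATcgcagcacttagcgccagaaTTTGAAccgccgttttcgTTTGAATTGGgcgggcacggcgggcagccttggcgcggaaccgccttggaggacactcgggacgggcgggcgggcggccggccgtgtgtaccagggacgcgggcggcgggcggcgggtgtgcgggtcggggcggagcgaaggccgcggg
Plk1: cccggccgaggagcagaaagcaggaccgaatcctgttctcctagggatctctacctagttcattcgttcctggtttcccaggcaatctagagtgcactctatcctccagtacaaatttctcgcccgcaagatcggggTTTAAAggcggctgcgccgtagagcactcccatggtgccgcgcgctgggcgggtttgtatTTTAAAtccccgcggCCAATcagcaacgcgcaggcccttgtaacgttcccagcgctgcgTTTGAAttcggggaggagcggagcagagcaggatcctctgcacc
Spc25: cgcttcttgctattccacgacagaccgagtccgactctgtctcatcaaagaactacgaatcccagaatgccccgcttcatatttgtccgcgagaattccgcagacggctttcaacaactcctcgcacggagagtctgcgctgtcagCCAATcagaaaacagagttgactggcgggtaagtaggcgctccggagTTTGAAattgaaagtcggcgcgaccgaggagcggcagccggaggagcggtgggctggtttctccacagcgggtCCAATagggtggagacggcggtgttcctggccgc
Cdc25c: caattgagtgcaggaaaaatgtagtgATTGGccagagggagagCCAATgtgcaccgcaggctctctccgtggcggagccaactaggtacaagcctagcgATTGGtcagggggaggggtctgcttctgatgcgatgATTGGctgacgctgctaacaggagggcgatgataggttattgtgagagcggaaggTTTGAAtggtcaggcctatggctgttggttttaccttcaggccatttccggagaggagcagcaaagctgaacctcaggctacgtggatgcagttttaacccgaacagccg
The Mki67 window held 2 CHR matches, starting at bases -117 and -99 from the start, and 4 CCAAT matches, of which the one at -94 lies on the other strand and overlaps the second CHR. Plk1 held 3 CHR matches, at -113, -53 and 7, with a single CCAAT box at -38. Spc25 held 1 CHR match at -57 and CCAAT boxes at -104 and 17, and Cdc25c held 1 CHR match at -60 with 4 CCAAT matches between -224 and -115. Spc25 and Cdc25c therefore held both motifs too.

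The CHR letters were in 30 of the 33 mitosis gene windows (90.9%), against 18.7% of the 9457 tested genes with a window. CCAAT was in 25 windows (75.8%), against 37.7% of tested genes, and both motifs stood together in 23 (69.7%), against 7.54%. Among all 27457 promoter windows of the table the shares were 27.9% with a CHR, 37.7% with a CCAAT box and 11.1% with both. The genes with no CHR letters in the window were Kif18a, Cdca3 and Cdc25b. Bub1, Bub1b, Aurka, Kif2c, Kif18a, Ndc80, Nuf2 and Mad2l1 had no CCAAT, so Kif18a had neither. CHR matches, 41 in all, had a median first base at -43, and 33 of them, in 28 genes, lay from 100 bases before the start onward. The 61 CCAAT matches had their median at -101. At least 2 CCAAT matches were found in 19 genes (57.6%), against 13.5% of tested genes. The median difference of the high glucose control minus the low glucose control was -0.42 over the 30 genes with a CHR match and -0.44 over the 3 without, that of OZ minus LZ serum 0.27 and 0.31, and that of fatty acid against both controls -0.11 and 0. With 3 genes on that side no comparison can be drawn.

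**Figure D1:**
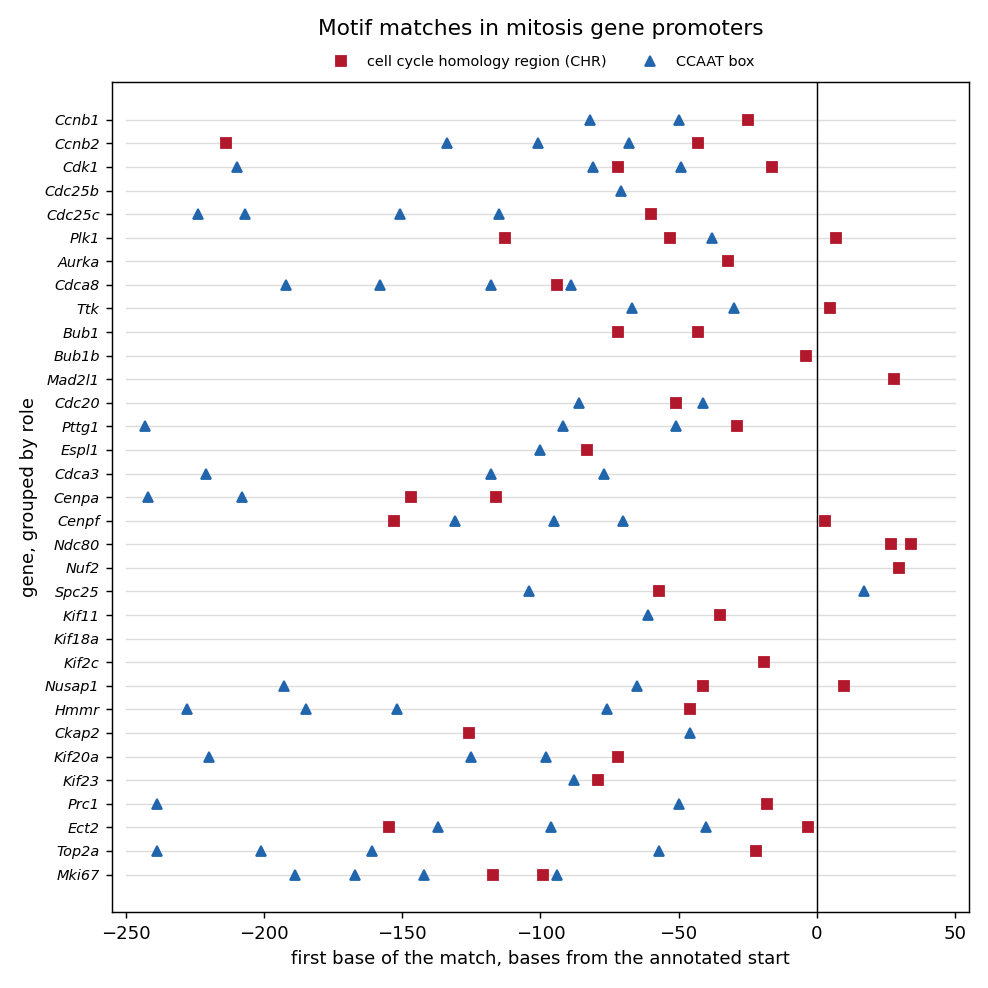
Matches to the CHR (squares) and the CCAAT box (triangles) in the promoter windows of 33 mitosis genes, 1 row per gene, grouped by role; the horizontal axis is the first base of each match in bases from the annotated start, marked by the vertical line. Most CHR matches gather just before the start, at a median of -43, and CCAAT matches farther out, at a median of -101.

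Across the 6 arrays the mean log2 signal of the 39 genes was 8.82 in cholesterol, 8.70 in fatty acid, 9.13 in OZ serum, 8.88 in LZ serum, 8.75 in the high glucose control and 9.18 in the low glucose control. The low glucose control and OZ serum were therefore the high pair, and fatty acid and the high glucose control the low pair. Over all 11540 genes the mean stayed between 9.03 and 9.07, as it must where arrays have been scaled to near-equal distributions. From high to low the arrays ran low glucose control, OZ serum, LZ serum, cholesterol, high glucose control, fatty acid. Only 1 step in this order was clear gene by gene: OZ serum was above LZ serum in 38 of 39 genes, by a mean of 0.25. Each other pair of neighbours differed by a mean of 0.05 to 0.07, with 22 to 25 of the 39 genes in the direction of the order, and cannot be ranked without replicates. The ends were far apart, fatty acid being below the low glucose control in 37 genes, with mean values 0.49 apart.

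The same split was seen in single genes. The low glucose control held the highest value of the 6 arrays in 21 mitosis genes, OZ serum in 17 and cholesterol in 1, while fatty acid, LZ serum and the high glucose control held it in none. Among all tested genes the highest value was in cholesterol for 22.6%, in fatty acid for 30.02% and in OZ serum for 9.22%. It was in LZ serum for 6.98%, in the high glucose control for 13.5% and in the low glucose control for 17.7%. Fatty acid held the lowest value in 23 mitosis genes, the high glucose control in 10, cholesterol in 4 and LZ serum in 2. Over all tested genes those shares were 29.0% in fatty acid, 11.01% in the high glucose control, 17.5% in cholesterol and 8.73% in LZ serum. The low glucose control was among the 2 highest arrays in 37 of 39 genes and OZ serum in 31, and the like share of all tested genes was not counted. The differences were small for each gene: the range over the 6 arrays had a median of 0.61 and a maximum of 0.999, against a median of 0.41 over all tested genes. No mitosis gene spanned a full 2-fold range, whereas 7.49% of all tested genes did.

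**Figure D2:**
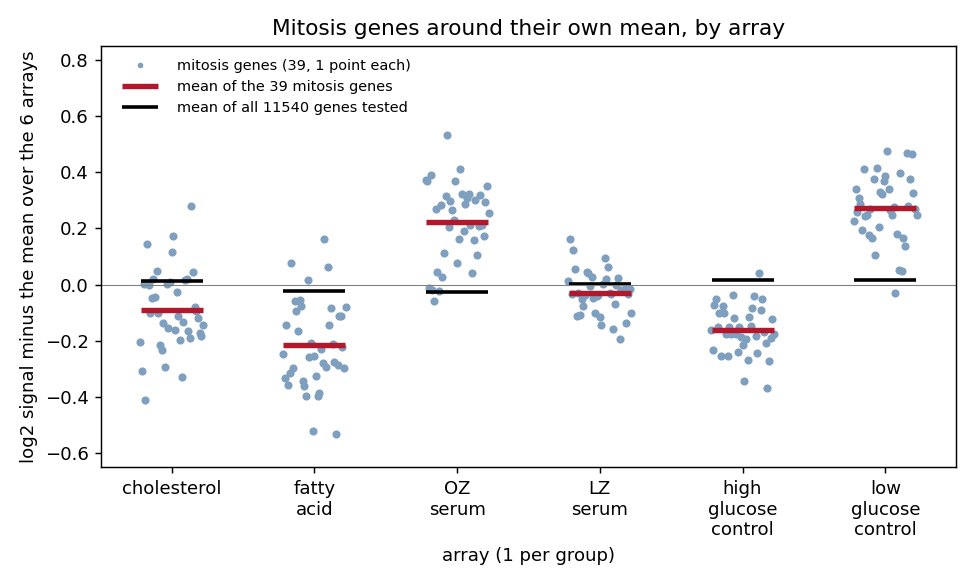
Log2 signal of each of the 39 mitosis genes minus that gene's mean over the 6 arrays (points), by array, with the mean of the 39 (red bars) and of all 11540 genes tested (black bars); 1 array per group, no error bars. The red bars lie at 0.27 in the low glucose control and 0.22 in OZ serum, and at -0.22 in fatty acid, while the black bars stay within 0.03 of 0.

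The order was also counted for each gene, as the number of the 15 pairs of arrays that the gene placed in the same order as the mean of the other mitosis genes. The median over the 39 genes was 13 pairs, against 7 over all tested genes, and 24 genes reached at least 13, which 3.93% of all tested genes did. Ndc80, Ect2 and Plk1 placed all 15 pairs in that order, which 0.225% of all tested genes did. Spc25 and Cdc25c placed only 8 pairs and were the genes that departed from the order, with Kif18a next at 9 and Mad2l1 at 10. The arrays did not stand equally close to one another: of all tested genes, 472 differed at least 2-fold between fatty acid and the high glucose control, 232 between cholesterol and that control, 41 between the controls and 3 between the serum arrays. The serum and glucose comparisons use neither of the lipid arrays that stood apart.

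**Figure D3:**
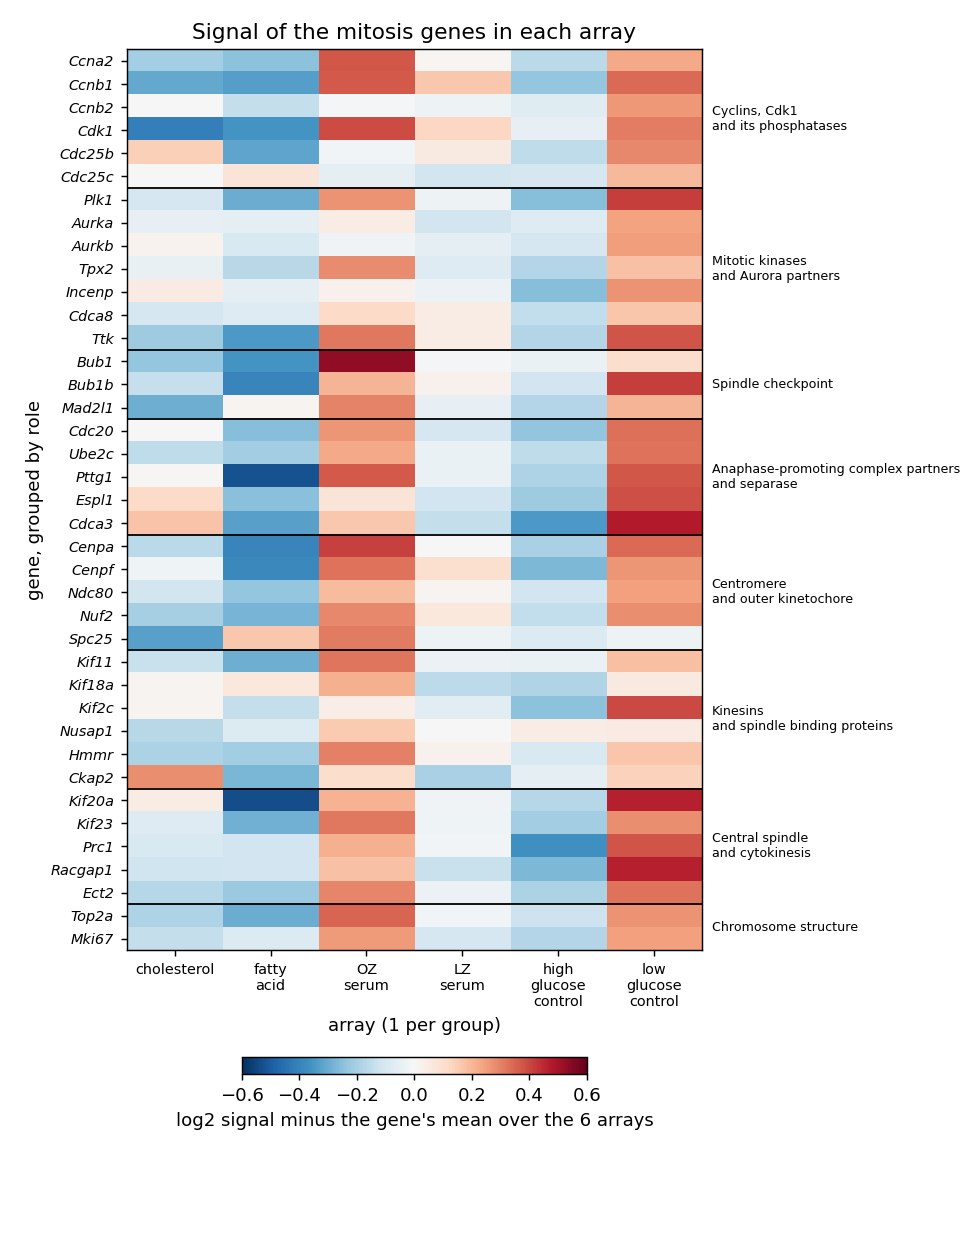
Log2 signal of each of the 39 mitosis genes in each of the 6 arrays, drawn as the difference from the gene's own mean over the arrays (red above, blue below), with genes grouped by role. The columns of OZ serum and the low glucose control are red in most rows, and fatty acid and the high glucose control are blue in most.

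Cyclins and Cdk1 start mitosis, and the Cdc25 phosphatases switch Cdk1 on. Cdk1, the mitotic kinase itself (probe set 17754704), had log2 signals of 9.29 in cholesterol, 9.34 in fatty acid, 10.09 in OZ serum, 9.82 in LZ serum, 9.65 in the high glucose control and 10.01 in the low glucose control. Both lipid arrays lay below the other 4, and Cdk1 showed the largest cholesterol difference of any mitosis gene, -0.36 against the nearer control. Ccnb1, cyclin B1, had 9.37 in cholesterol, 9.35 in fatty acid, 10.05 in OZ serum, 9.84 in LZ serum, 9.45 in the high glucose control and 10.02 in the low glucose control, and so repeated that pattern with the high glucose control nearly as low. Ccna2, cyclin A2, was highest in OZ serum (10.71) and lowest in fatty acid (10.09). Ccnb2, cyclin B2, was measured by 2 probe sets that did not give the same picture. The brighter put OZ serum and LZ serum level, at 10.22 and 10.20, while the dimmer had 9.53 in OZ serum and 9.33 in LZ serum. The activating phosphatase Cdc25b had 9.11 in cholesterol, 8.65 in fatty acid, 8.95 in OZ serum, 9.02 in LZ serum, 8.82 in the high glucose control and 9.26 in the low glucose control. It was the only mitosis gene lower in OZ serum than in LZ serum, by -0.07. All 6 genes of this group were lower in the high than in the low glucose control, with a median of -0.37, against 51.1% of all tested genes.

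The mitotic kinases and the partners of Aurora kinases gave the same direction between the controls in all 7 measured genes, with a median of -0.35. Of all tested genes 51.1% were lower there. Plk1, the polo-like kinase that acts at centrosomes, kinetochores and the midzone (probe set 17620368), had 10.41 in cholesterol, 10.21 in fatty acid, 10.78 in OZ serum, 10.48 in LZ serum, 10.25 in the high glucose control and 10.92 in the low glucose control. It followed the shared order in every pair. Ttk, the checkpoint kinase also called Mps1, had 7.98 in cholesterol, 7.86 in fatty acid, 8.52 in OZ serum, 8.24 in LZ serum, 8.02 in the high glucose control and 8.57 in the low glucose control. The Aurora kinases varied less. Aurka, which acts at spindle poles, spanned 8.38 to 8.73 and Aurkb, the kinase of the chromosomal passenger complex, 8.52 to 8.87. In both the low glucose control stood above the other 5 arrays, which lay close together. Tpx2, the activator of Aurora A on the spindle, was highest in OZ serum (10.12) and lowest in the high glucose control (9.66). Incenp, the scaffold of the passenger complex, was 8.14 in the high glucose control and 8.66 in the low glucose control, and Cdca8, its subunit borealin, was the dimmest mitosis gene, between 6.99 and 7.30.

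All 3 spindle checkpoint genes were lower in cholesterol than in both controls, by -0.02 (Bub1b) to -0.20 (Bub1), against 33.6% of all tested genes. All 3 were higher in OZ than in LZ serum, with a median of 0.35, against 41.9% of all tested genes. Bub1, the checkpoint kinase at kinetochores (probe set 17777079), had 8.77 in cholesterol, 8.64 in fatty acid, 9.53 in OZ serum, 8.99 in LZ serum, 8.96 in the high glucose control and 9.10 in the low glucose control. OZ serum stood alone at the top, and its difference from LZ serum, 0.54, was the largest of any mitosis gene. On the linear scale that was an intensity of 740.4 in OZ serum and 509.2 in LZ serum. Bub1b, which encodes BubR1, a component of the inhibitor of the anaphase-promoting complex, had 7.63 in cholesterol, 7.37 in fatty acid, 7.97 in OZ serum, 7.79 in LZ serum, 7.65 in the high glucose control and 8.18 in the low glucose control. Its low value in fatty acid was 0.28 below the high glucose control and 0.81 below the low glucose control. Mad2l1, which encodes Mad2, the subunit that captures Cdc20, placed fatty acid (8.72) above LZ serum (8.66), cholesterol (8.41) and the high glucose control (8.53), unlike most of the genes.

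The partners of the anaphase-promoting complex and separase showed a wide gap between the controls, with a median of -0.57 over 5 genes. All 5 were higher in cholesterol than in fatty acid, against 51.9% of all tested genes. Cdca3, a mitotic entry factor degraded through the anaphase-promoting complex (probe set 17787131), had 8.36 in cholesterol, 7.86 in fatty acid, 8.35 in OZ serum, 8.04 in LZ serum, 7.84 in the high glucose control and 8.66 in the low glucose control. Its difference of -0.82 between the high and the low glucose control was the largest of any mitosis gene, and fatty acid was as low as the high glucose control. Pttg1, securin, which holds separase inactive (probe set 17655588), had 8.89 in cholesterol, 8.36 in fatty acid, 9.25 in OZ serum, 8.84 in LZ serum, 8.69 in the high glucose control and 9.25 in the low glucose control. The fatty acid array was the lowest by a clear step, 0.33 below the next array. Espl1, separase itself, had 7.77 in cholesterol, 7.40 in fatty acid, 7.73 in OZ serum, 7.54 in LZ serum, 7.44 in the high glucose control and 8.04 in the low glucose control. Cdc20, the activator that the checkpoint restrains, spanned 10.25 in fatty acid to 10.83 in the low glucose control, and Ube2c, the ubiquitin-conjugating enzyme of the complex, 10.34 to 10.87 in the same arrays.

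Centromere and outer kinetochore genes link chromosomes to microtubules. Cenpa, the histone H3 variant that marks centromeres (probe set 17820840), had 8.08 in cholesterol, 7.85 in fatty acid, 8.65 in OZ serum, 8.24 in LZ serum, 8.05 in the high glucose control and 8.58 in the low glucose control. OZ serum and the low glucose control stood apart from the other 4 arrays, and OZ serum exceeded LZ serum by 0.41. Ndc80, the microtubule-binding subunit of the Ndc80 complex (probe set 17867205), had 8.35 in cholesterol, 8.23 in fatty acid, 8.65 in OZ serum, 8.48 in LZ serum, 8.34 in the high glucose control and 8.70 in the low glucose control, which is the shared order itself. Its partner Nuf2 spanned 8.10 in fatty acid to 8.67 in OZ serum. Spc25, of the part of the same complex that faces the centromere, gave another pattern, described with the departures. Cenpf, a large kinetochore protein, had 8.57 in cholesterol and 8.21 in fatty acid, against 8.33 and 8.87 in the high and the low glucose control.

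Kinesins and spindle-binding proteins varied the least between the controls, with a median of -0.23 over 6 genes. Nusap1, which bundles spindle microtubules (probe set 17765104), had 9.09 in cholesterol, 9.17 in fatty acid, 9.41 in OZ serum, 9.25 in LZ serum, and 9.30 in both the high and the low glucose control. It did not separate the controls, and cholesterol was the lowest array, 0.21 below both. Ckap2, a microtubule-associated spindle protein (probe set 17708936), had 9.56 in cholesterol, 9.01 in fatty acid, 9.39 in OZ serum, 9.09 in LZ serum, 9.23 in the high glucose control and 9.42 in the low glucose control. Cholesterol was its highest array, which was so for no other mitosis gene, and fatty acid its lowest. Kif11, the motor that pushes spindle poles apart, was highest in OZ serum (8.87) and lowest in fatty acid (8.26). Kif2c, the microtubule-depolymerising kinesin MCAK, had 7.77 in the high glucose control and 8.41 in the low glucose control. Hmmr, a spindle assembly factor, had 7.44 in fatty acid and 7.96 in OZ serum as its ends.

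The central spindle and cytokinesis genes showed the widest gap between the controls of the 8 role groups, with a median of -0.64 over 5 genes. Prc1, which bundles midzone microtubules (probe set 17617801), had 9.53 in cholesterol, 9.51 in fatty acid, 9.83 in OZ serum, 9.60 in LZ serum, 9.25 in the high glucose control and 9.997 in the low glucose control. Racgap1, a subunit of centralspindlin (probe set 17841043), had 8.53 in cholesterol, 8.54 in fatty acid, 8.83 in OZ serum, 8.52 in LZ serum, 8.38 in the high glucose control and 9.12 in the low glucose control. In both genes the controls were the extremes and all 4 treated arrays lay between them, with a high minus low difference of -0.74 in each. Kif20a, the kinesin that brings the passenger complex and Plk1 to the midzone (probe set 17722313), had 9.68 in cholesterol, 9.10 in fatty acid, 9.84 in OZ serum, 9.61 in LZ serum, 9.46 in the high glucose control and 10.10 in the low glucose control. Fatty acid was its lowest array by 0.36. An intensity of 550.1 in fatty acid stood against 1099 in the low glucose control, just short of 2-fold and the widest span of any mitosis gene. Ect2, an exchange factor needed for the cleavage furrow (probe set 17746602), had 8.30 in cholesterol, 8.25 in fatty acid, 8.77 in OZ serum, 8.44 in LZ serum, 8.28 in the high glucose control and 8.80 in the low glucose control, again the shared order. Kif23, the motor subunit of centralspindlin, spanned 8.59 in fatty acid to 9.20 in OZ serum.

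The genes of chromosome structure were the DNA topoisomerase Top2a and Mki67, the proliferation marker that coats mitotic chromosomes. Mki67 (probe set 17637913) had 10.50 in cholesterol, 10.57 in fatty acid, 10.90 in OZ serum, 10.54 in LZ serum, 10.47 in the high glucose control and 10.89 in the low glucose control. OZ serum and the low glucose control formed a high pair, and the other 4 arrays lay within 0.10 of one another. Top2a had 9.21 in cholesterol, 9.09 in fatty acid, 9.74 in OZ serum, 9.38 in LZ serum, 9.27 in the high glucose control and 9.66 in the low glucose control.

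In Spc25, Cdc25c and Kif18a the largest deviation from the profile of the other mitosis genes was in the fatty acid array. Other arrays deviated too, and only the largest deviation of each gene is given below. Spc25 (probe set 17772999) had 7.84 in cholesterol, 8.33 in fatty acid, 8.48 in OZ serum, 8.14 in LZ serum, 8.08 in the high glucose control and 8.14 in the low glucose control. Fatty acid was its second highest array and cholesterol its lowest, so that cholesterol minus fatty acid was -0.49, while the controls differed by only -0.05. Cdc25c, the phosphatase that completes the activation of Cdk1 (probe set 17725519), had 8.59 in cholesterol, 8.67 in fatty acid, 8.54 in OZ serum, 8.48 in LZ serum, 8.49 in the high glucose control and 8.79 in the low glucose control. Fatty acid again came second, and OZ serum was below cholesterol. Kif18a, the kinesin that dampens chromosome movements, had 7.74 in cholesterol, 7.79 in fatty acid, 7.94 in OZ serum, 7.57 in LZ serum, 7.54 in the high glucose control and 7.78 in the low glucose control. Relative to the level given by each gene's mean and the profile of the other mitosis genes, the fatty acid value was high by 0.39 in Spc25, 0.30 in Cdc25c and 0.28 in Kif18a, and off by -0.32 in Kif20a and -0.31 in Pttg1. The cholesterol value was high by 0.38 in Ckap2 and off by -0.33 in Cdk1, and the OZ serum value was high by 0.32 in Bub1.

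Between the high and the low glucose control, all 39 mitosis genes were lower in the high glucose array, with a median difference of -0.42, a 1.34-fold difference, and a range of -0.82 to -0.01. Of all tested genes, 51.1% were lower. The direction of Nusap1, the smallest difference, turned under quantile and cyclic loess scaling. Differences of at least 1.5-fold were found in 7 mitosis genes, Cdca3, Prc1, Racgap1, Plk1, Kif2c, Kif20a and Espl1, against 1.11% of all tested genes. No mitosis gene reached 2-fold, which 0.251% of all tested genes did upward and 0.104% downward. With a single array of each control, the spread between cultures of 1 kind was not measured.

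Between the serum arrays, 38 of 39 mitosis genes were higher in OZ serum than in LZ serum, against 41.9% of all tested genes. The median was 0.27, a 1.21-fold difference, and the range was -0.07 to 0.54, led by Bub1, Cenpa and Pttg1. The small differences of Ccnb2 and Aurkb turned to lower when arrays were centred on their medians. At 2-fold there was no mitosis gene, and all tested genes gave 0% higher and 0.026% lower. Set against the controls, OZ serum was above the high glucose control in 39 of 39 genes (38.8% of all tested genes) and below the low glucose control in 22 (56.4%, near the 58.4% of all tested genes), with medians of 0.43 and -0.03. LZ serum was above the high glucose control in 35 (45.8%) and below the low glucose control in 38 (54.8%), with medians of 0.14 and -0.31. Spc25 alone was above both controls in both serum arrays, against 8.83% of all tested genes. Its LZ serum value exceeded the low glucose control by only 0.0013, so those arrays were level. At 2-fold, 0% of tested genes were called in either direction there.

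Fatty acid was below both controls in 25 mitosis genes and above both in 2, Spc25 (0.20) and Kif18a (0.01). Of all tested genes 39.7% were below both and 40.4% above both. No mitosis gene reached 2-fold, which 0.641% of all tested genes did upward and 2.01% downward. The largest differences against the nearer control were -0.36 in Kif20a, -0.33 in Pttg1 and -0.32 in Bub1. The separate controls gave unlike results. Against the high glucose control, 25 genes were lower with a median of -0.07 (48.9% of all tested genes were lower), and 5 of the smallest differences, those of Cdc20, Aurka, Aurkb, Tpx2 and Cdca3, changed sign with the scaling. Against the low glucose control, 37 were lower with a median of -0.53 or 1.45-fold (50.5% of all tested genes), and 12 were lower by at least 1.5-fold, against 8.81% of all tested genes. Those 12 were Kif20a, Pttg1, Bub1b, Cdca3, Cenpa, Ttk, Plk1, Ccnb1, Cdk1, Cenpf, Espl1 and Cdc25b.

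**Figure D4:**
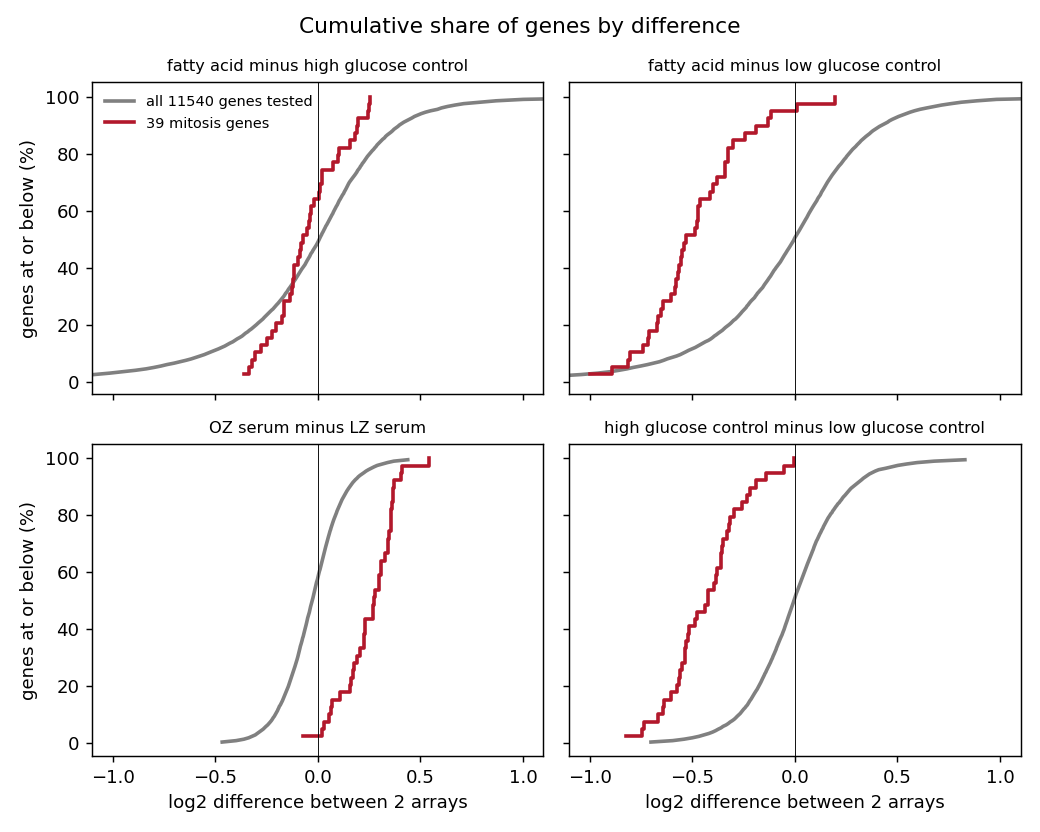
Cumulative share of genes (vertical axis, percent at or below) by log2 difference between 2 arrays (horizontal axis), for the 39 mitosis genes (red steps) and all 11540 genes tested (grey). The red line lies left of the grey one for fatty acid minus the low glucose control (median -0.53) and for the high minus the low glucose control (median -0.42), right of it for OZ minus LZ serum (median 0.27), and across it for fatty acid minus the high glucose control (median -0.07).

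Cholesterol was below both controls in 14 mitosis genes, or 35.9%, near the 33.6% of all tested genes. It was above both only in Ckap2 (0.14), against 36.3% of all tested genes, and between them in 24. The largest differences against the nearer control were -0.36 in Cdk1, -0.24 in Spc25 and -0.21 in Nusap1. No mitosis gene reached 2-fold, against 0.381% of all tested genes upward and 0.806% downward. With each control taken separately, cholesterol was above the high glucose control in 25 genes with a median of 0.05 (52.3% of all tested genes), and below the low glucose control in 38 with a median of -0.36 (49.6%). Of the differences from the high glucose control, those of Aurka, Cenpa, Ube2c, Mki67, Ndc80 and Ect2 changed sign with the scaling. Both lipid comparisons share the same 2 control arrays. Set against each other, cholesterol was above fatty acid in 30 of 39 genes, with a median of 0.11, against 51.9% of all tested genes. The 3 largest of these were Kif20a (0.57), Ckap2 (0.55) and Pttg1 (0.53), and Spc25 (-0.49) and Mad2l1 (-0.31) led the 9 genes that were lower. Under quantile scaling 14 were lower, since the small differences of Prc1, Ccnb1, Aurka, Ect2 and Hmmr changed sign. No mitosis gene reached 2-fold between the lipid arrays, against 1.92% of all tested genes upward and 0.901% downward.

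Other cell cycle genes were read from lists that were chosen with earlier results of these data known. The shares of all tested genes to set beside their counts are 51.1% lower in the high than in the low glucose control, 41.9% higher in OZ than in LZ serum, and 39.7% below and 40.4% above both controls in fatty acid. Among other mitotic kinesins and spindle genes, 28 of 31 tested were lower in the high than in the low glucose control (median -0.39), 27 were higher in OZ than in LZ serum (median 0.16), and 18 were below both controls in fatty acid. Ccnf, cyclin F, had 8.32 in the high and 9.21 in the low glucose control, and Spag5, the spindle protein astrin, 7.43 and 8.28. Cit, the citron kinase of the midbody, was 9.40 in fatty acid, against 10.08 and 10.19 in the high and the low glucose control. All 7 tested condensin subunits, which compact mitotic chromosomes, were lower in the high than in the low glucose control (median -0.32). Other kinetochore and checkpoint genes were lower there in 20 of 28 (median -0.22), led by Hjurp, the chaperone of Cenpa, at 7.86 in the high and 8.73 in the low glucose control. In fatty acid 12 of these 28 were above both controls, a share near the 40.4% of all tested genes. Another 6 were below both, where all tested genes gave 39.7%, and the median was 0. The list for the anaphase-promoting complex core, which is not known for strong periodic transcription, also held the regulators Fzr1 and Fbxo5. It gave a median of -0.08 over 16 genes, 10 lower and 6 higher, with Fzr1 at -0.40 and Fbxo5 at -0.39. Cohesin and its regulators gave 0.06 over 13.

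DNA replication genes, which act in the preceding S phase, had the direction of the mitosis genes between the controls and between the serums. In the high glucose control 35 of 37 were lower than in the low glucose control (median -0.33), and 31 were higher in OZ than in LZ serum (median 0.13). In fatty acid 14 of 37 were above both controls, a share near the 40.4% of all tested genes, and 5 were below both, where all tested genes gave 39.7%. The mitosis genes, with 2 above both and 25 below, had the other balance. Prim1, a DNA primase subunit, had 10.04 in fatty acid, against 9.28 and 9.39 in the high and the low glucose control, and Pcna, the sliding clamp, had 11.54 in fatty acid, against 10.99 and 10.93. These were the largest upward differences of the list in fatty acid. The median of the 37 genes there was 0, and the lowest was -0.26 in Gins2. The differences between the lists were not tested. Of the regulators of mitotic transcription, Mybl2, which encodes B-Myb, had 8.08 in the high and 9.01 in the low glucose control, and Foxm1 had 8.96 and 9.47, while the 13 tested genes of that list had a median of -0.14. No gene of these lists reached 2-fold between the controls.

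**Figure D5:**
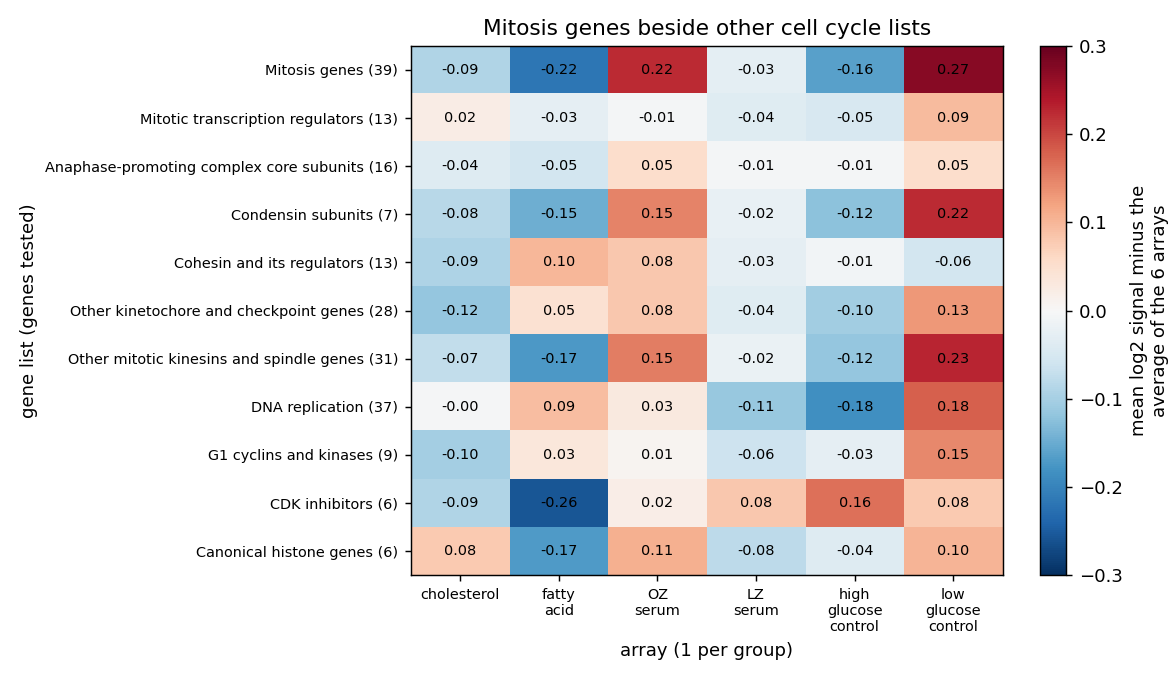
Mean log2 signal of the mitosis genes and of 10 other cell cycle lists in each array, minus the list's average over the 6 arrays (colour and printed value), with the number of genes tested in brackets. The fatty acid column is at -0.22 for the mitosis genes and at 0.09 for DNA replication, and in both rows the low glucose control is the highest array.

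The cell type markers set limits to the comparison. Of 8 muscle progenitor markers 4 passed the filter of 6.74: Ncam1 (11.37 to 12.43), Pax3 (7.64 to 8.39), Pax7, the marker of satellite cells (6.90 to 7.26), and Des (6.83 to 7.05). Myf5 and Myod1, the factors that define myoblasts, lay below it in all 6 arrays. Of 10 measured mesenchymal markers 9 passed it, Thy1 (13.17 to 13.51) and Pdgfrb (11.83 to 12.79) among them. The summed intensity of 10 mesenchymal markers ran from 51340 in fatty acid to 67782 in the low glucose control, the same ends as the mitosis genes. As a mean of log2 values over the 9 past the filter, fatty acid was again the lowest (11.85), but the highest was LZ serum (12.32), with the low glucose control at 12.28. Of these 9, 6 were below both controls in fatty acid, where 39.7% of all tested genes were, and Cd44 alone was above both. Cd44 had 10.94 in fatty acid, against 10.35 and 10.49 in the high and the low glucose control. The 8 muscle progenitor markers summed to 3464 in fatty acid and 6390 in the low glucose control, and most of that sum was Ncam1, with log2 signals of 11.37 and 12.43. Pax7 (7.26 in fatty acid, against 6.90 and 7.04 in the high and the low glucose control) and Des (7.04, against 6.84 and 6.86) ran the other way. Their part in the result was not tested. Of 7 macrophage and leukocyte markers 2 passed the filter, Cd68 and Cd14, and the defining gene Ptprc stayed below it. All 7 summed to 737.9 in fatty acid, the lowest array, and to 1723 in cholesterol, the highest. Cd68 had 8.37 in cholesterol, against 6.81 and 6.77 in the high and the low glucose control, and Cd14 10.13, against 9.62 and 9.01. Both of the 2 measured smooth muscle and myofibroblast markers passed the filter, and they summed to 11875 in fatty acid and 12997 in the low glucose control. Most of that sum was Tagln, with log2 signals of 13.51 and 13.63. Myh11 differed by -0.85 in fatty acid from the nearer control, and cholesterol minus fatty acid was 1.07. The part of these markers was not tested. Endothelial and epithelial markers, 3 measured of each, were below the filter. Schwann cell markers summed to 1268 to 1728 and adipocyte markers to 346.7 to 420.8.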

How the data were processed

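The 6 groups, 1 array each, were taken from the sample titles. The deposited table held 1 linear intensity per probe set and array, all positive. How the authors summarised, background-corrected or normalized them is not given in the sources used here. Array medians were nearly equal (104.6 to 109.2), so the values were taken as scaled and put on log2 with no offset, and their number limits the precision. Of 36685 probe sets, the platform annotation gave 1 gene for 18511. A gene took its probe set with the highest mean, and 11540 genes with a mean log2 of at least 6.74, the median of all values, were tested. Against several arrays, a gene's value is the smallest log2 difference if all have 1 sign and 0 otherwise. A gene was named with all 6 values if it was among the 3 largest differences of a comparison, departed from the shared order (fewer than 9 of 15 pairs, or 0.5 from its expected level) or followed it most closely. Further genes were given 6 values after they were seen. The members, lists and motifs were chosen with earlier results of these data known. Alternatives covered scaling, filter, offset, probe set choice, threshold, control and promoter window. Python 3.11.15, pandas 2.3.3, R 4.3.3 and limma 3.58.1 were used, and the counting was tested on simulated data.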

Additional observations from a re-analysis of the deposited data

How the results depend on the processing

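No paired analysis was possible because each group had 1 array and the labels give no replicate numbers. Of 367 values recomputed under the alternatives, 337 stayed within 0.1 log2 or 1.5 times of the reported value, 30 moved and 0 reversed. By the rule used, no count and no value under 0.1 log2 in size could be labelled reversed. The cholesterol median, 0 against both controls, was thus labelled moved, although it was 0.05 against the high and -0.36 against the low glucose control. Counts at 2-fold, all 0 in the main values, are among those that stayed. The choice of control moved the most. Against the high glucose control alone, cholesterol was above in 25 mitosis genes, fatty acid in 14 and both serums in 35 (serum median 0.14). Of all tested genes, 52.3% were above it in cholesterol and 51.1% in fatty acid. Against the low glucose control alone, cholesterol was below in 38 (median -0.36), against 49.6% of all tested genes. Fatty acid had a median of -0.53 there and both serums were below in 22. Against the mean of both controls, cholesterol was above in 6 and below in 33 (median -0.18), fatty acid above in 4 (median -0.30), and the serums above in 4 and below in 7. The shares of all tested genes against that mean, and for both serums together against a single control, were not counted, so these counts cannot be set against a background. Quantile scaling gave 14 genes lower in cholesterol than in fatty acid and 1 higher in the high than in the low glucose control; cyclic loess gave 1 there and 1 above both controls in fatty acid. Median centring gave 1 above both controls in fatty acid, 3 lower in OZ than in LZ serum and 0 above both controls in both serums. The stricter filter, which leaves 27 mitosis genes, gave 9 below both controls in cholesterol, 0 above in fatty acid and 0 above in the serums. It left out Spc25 and Kif18a, the genes that had been above both controls in fatty acid, and Spc25 had been the 1 in the serums. In each of these 4 settings only 1 gene departed from the order. It was Spc25 under quantile and loess scaling and Cdc25c under median centring. Under the stricter filter it was Cdc25c, with Spc25 no longer among the genes. At 1.5-fold, 7 genes were lower in the high glucose control. The order of arrays was the same under every alternative except the median over genes, which put OZ serum above the low glucose control and fatty acid above the high glucose control. The other probe set of Ccnb2, an alternative chosen after seeing the data, kept counts within 1.5 times and medians within 0.1 log2. By it Ccnb2 joined the genes below both controls in cholesterol (9.12, against 9.17 and 9.60 in the high and the low glucose control). Under the scaling, filter, offset and probe set settings, the median difference of all genes in a comparison was at most 0.0637 in size. That value was the -0.0637 of OZ minus LZ serum under median centring, against -0.0277 in the main values. The cause was not tested for any of these. Signal over background was not used here, and dim genes such as Cdca8 lie closest to the filter.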

Other observations

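Genes that act before mitosis gave values of other kinds. Cdk6, a kinase of the G1 phase, had a log2 signal of 10.34 in cholesterol and 10.58 in fatty acid, with differences of -0.67 and -0.42 from the nearer control. Ccnd1, cyclin D1, had 11.05 in the high and 11.50 in the low glucose control, the direction of the mitosis genes. Cdkn2b, an inhibitor of the G1 kinases, had 9.69 in cholesterol and 9.49 in fatty acid, against 10.61 and 10.13 in the high and the low glucose control. It was higher in the high than in the low glucose control, where all 39 mitosis genes were lower, and it was lowest in fatty acid, as 23 mitosis genes were. Cdkn2a, whose products inhibit the G1 kinases or stabilise p53, was 6.83 in fatty acid, against 7.48 and 7.62 in the controls, close to the filter.

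Cenpu, a subunit of the constitutive centromere network, had 8.54 in fatty acid, against 7.65 and 7.99 in the high and the low glucose control. Its signal in fatty acid was on the side of Spc25 and of Prim1, not on that of Cenpa (7.85 in fatty acid, against 8.05 and 8.58). Lin37, a subunit of the MuvB complex, had 10.08 in fatty acid, against 9.55 and 9.39. Each of these is 1 value per array, with no replicate.

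Limits: each group was 1 array, so no difference between the arrays can be set against the spread between cultures. No source used here states culture density, passage or time in culture. Values had been processed before deposit by a method that no source used here states, and differences in total RNA per culture cannot be seen. The fatty acid array was lowest for the mitosis genes and, by sum and by mean, for mesenchymal, smooth muscle, muscle progenitor and macrophage markers. Of the markers in these lists past the filter, Cd44, Pax7, Des and Cd68 ran the other way, with fatty acid above both controls. The part of cell make-up was not tested. Promoter letters were read from a current assembly and show no binding.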
